A study of Mus musculus with 2 samples.

Results

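Myocytes committed to fusion were picked out of droplet single-cell libraries of regenerating mouse muscle by the transcripts they carried. A barcode was a member when it held at least 3 UMIs (unique molecular identifiers, each counting 1 captured RNA molecule) of Myog, at least 1 UMI in Mymk, Cdh15 or Myod1, and none of Ptprc, Pdgfra and Cdh5, the markers of leukocytes, fibroblasts and endothelial cells. The rule was applied to barcodes with at least 200 genes and at most 10% of UMIs from mitochondrially encoded genes, and it gave 640 members among 23001 such barcodes. The WT library contributed 237 members of 13837 barcodes and the AIBP-KO library 403 of 9164.

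The libraries were made from the whole cell suspension of the adductor, a thigh muscle, 7 days after ligation of the femoral artery, which starves the downstream muscle of blood and sets off degeneration and repair. The WT group was littermate controls and the AIBP-KO group was Apoa1bp-/- mice, and both had the ligation. The ligation was performed in 4 animals of each genotype, from which there is 1 library per genotype, with pooling, age and sex not given in the sources used here. Tissue was minced and digested with collagenase D and passed through a strainer. With 1 library per genotype no difference between genotypes can be tested against replicate spread, and all values below describe these 2 libraries. Intervals are exact 95% intervals and cover counting error only.

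When adult muscle is injured, satellite cells leave quiescence, multiply as myoblasts under Pax7, Myf5 and Myod1, and then commit. Myog, encoding the transcription factor myogenin, marks that commitment: the cells leave the cell cycle, switch on the fusion proteins myomaker (Mymk) and myomixer (Mymx), and build embryonic sarcomeres before and after they fuse into new fibres. Myogenin and its relatives bind the E-box, a short DNA element found in front of many muscle genes, often with MEF2 factors.

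The targeted gene was examined first. Apoa1bp is now named Naxe (ENSMUSG00000028070) and encodes AIBP, which binds apolipoprotein A-I and repairs hydrated NAD(P)H. In WT members Naxe stood at 48.8 CPM (its UMIs summed over members and scaled to the members' total UMIs), with 94 UMIs, and 32.1% of members had at least 1. The AIBP-KO members held 0 Naxe UMIs in 4920183, so the level was at least 80.0-fold lower, taking 3 counts over the group as the floor. Naxd, its partner enzyme in NAD(P)HX repair, stood at 47.2 CPM in WT and 57.3 CPM in AIBP-KO members.

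Members were 1.71% (1.503 to 1.943) of WT barcodes and 4.40% (3.99 to 4.84) of AIBP-KO barcodes, a ratio of 2.57 (2.18 to 3.03). The Myog threshold is a number of UMIs and depth differed, with medians of 6820 UMIs per WT member and 10417 per AIBP-KO member. With every barcode thinned to 2000 UMIs before the rule was applied, 188 of 11292 WT and 332 of 7854 AIBP-KO barcodes qualified, which is 1.66% and 4.23%. The ratio of those shares was 2.54. Of 349 WT and 548 AIBP-KO barcodes with Myog and a partner gene, 112 and 145 also held Ptprc, Pdgfra or Cdh5. A further 10 and 7 barcodes had the Myog UMIs and none of the exclusion genes but lacked all 3 partner genes.

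The libraries share 43 barcode sequences, none of them a member in both, and 5 a member in either. Scrublet, a caller of droplets with 2 cells, marked 23 WT members (9.70%) and 8 AIBP-KO members (1.99%), against 12.03% and 5.72% of all filtered barcodes. The members were kept as chosen, and the doublet calls are given where they touch a result.

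The genes that chose the members are given as a description only. Myog (ENSMUSG00000026459) ran from the rule's minimum of 3 UMIs to 119 in WT, with a median of 25 and quartiles of 11 and 43. In AIBP-KO members the median was 40, the quartiles 14 and 79.5, and the maximum 259. As summed levels, Myog stood at 3669 CPM in WT and 4349 CPM in AIBP-KO members. Mymk (ENSMUSG00000009214), the multipass membrane protein that lets myoblast membranes merge, stood at 403 and 513 CPM and was seen in 70.0% and 73.2% of members. Cdh15, encoding M-cadherin, which holds myogenic cells to each other, stood at 180 and 152 CPM and was seen in 64.6% and 73.7%. Myod1, the determination factor that precedes Myog, stood at 334 and 451 CPM and was seen in 84.0% and 91.3%. All 3 partner genes were present in 37.6% of WT and 48.4% of AIBP-KO members.

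Values on either side of the Myog threshold follow. The 19 WT and 28 AIBP-KO members with 3 or 4 Myog UMIs held Mymk at 112 and 101 CPM and Tnnt2 at 280 and 175 CPM. The 50 and 85 barcodes that met the other criteria with 1 or 2 Myog UMIs held Mymk at 39.5 and 9.89 CPM and Tnnt2 at 108 and 26.7 CPM. Pax7, the satellite cell factor, stood at 72.0 and 62.4 CPM inside and at 98.6 and 124 CPM outside.

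The promoters of Myog, Klhl41 and Actc1 are shown because Myog defines the members, Actc1 ranked first among the genes that set them apart from their precursors, and Klhl41 was picked after the search for carrying the most motifs. Each sequence is the 250 bases before the transcription start, read 5′ to 3′ on the gene's own strand from RefSeq (GRCm38.p6). Capitals mark the E-box letters CANNTG and the MEF2 motif YTAWWWWTAR, where Y is C or T, W is A or T and R is A or G. Both patterns read the same on either strand and did not overlap here. The stretch ctatatttat of the Myog window misses that MEF2 pattern by its last base only and is left in lower case.
Myog, chr1:134289754-134290003, plus strand: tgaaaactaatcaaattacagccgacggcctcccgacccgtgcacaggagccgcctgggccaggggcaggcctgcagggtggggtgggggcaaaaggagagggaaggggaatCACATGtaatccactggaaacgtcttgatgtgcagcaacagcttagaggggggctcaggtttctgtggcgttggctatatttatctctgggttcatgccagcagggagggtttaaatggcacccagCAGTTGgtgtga
Klhl41, chr2:69669870-69670119, plus strand: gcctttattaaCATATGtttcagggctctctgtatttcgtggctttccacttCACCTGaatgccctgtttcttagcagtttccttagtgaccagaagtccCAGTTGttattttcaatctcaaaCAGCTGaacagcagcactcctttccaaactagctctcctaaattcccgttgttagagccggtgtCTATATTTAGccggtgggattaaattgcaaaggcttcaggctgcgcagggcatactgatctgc
Actc1, chr2:114052876-114053125, minus strand: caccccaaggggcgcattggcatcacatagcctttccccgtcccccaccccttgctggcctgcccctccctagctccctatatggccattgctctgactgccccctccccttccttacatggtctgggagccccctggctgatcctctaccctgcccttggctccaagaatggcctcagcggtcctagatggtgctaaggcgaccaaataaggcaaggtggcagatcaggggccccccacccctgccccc
The Myog window held 2 E-boxes, at 138 and 12 bases before the start, and 31.8% of the 32851 promoters in the table held at least as many. The Klhl41 window held 4 E-boxes, a number reached by 3.84% of promoters, and 1 MEF2 motif, which 2.92% of promoters hold. The Actc1 window held neither, which says only that these letters are not in it. Of 16 genes looked for, 11 were in the table with 14 promoters, and 12 of the 14, from 10 genes, had an E-box, against 66.2% of all promoters. Mymk, Mymx, Myod1, Smim5 and Shisal1 were not matched.

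The label was checked against markers the rule did not use. Mymx, Actc1, Tnnt2, Cdkn1c, Chrna1 and Ttn were all detected in most WT members, at 69.6%, 72.6%, 71.3%, 91.6%, 83.1% and 80.2%. In AIBP-KO members the same genes were detected in 56.8%, 73.0%, 55.1%, 94.8%, 90.3% and 64.3%. Embryonic myosin (Myh3) was seen in only 22.4% and 23.8%, and Mef2c in 25.3% and 19.4%. To compare shares at 1 depth, cells were thinned to 2000 UMIs, which left out 10 WT and 6 AIBP-KO members. Actc1 was then seen in 63.0% of WT and 61.7% of AIBP-KO members, and Cdkn1c in 85.9% and 90.2%. The other markers fell further. Tnnt2 was seen in 56.4% and 39.0%, Ttn in 60.4% and 43.8% and Mymx in 48.5% and 36.8%. Chrna1 was seen in 47.6% and 50.4% and Myh3 in 8.81% and 8.56%. Cdkn1c was also seen in 35.2% and 34.3% of thinned satellite cell and myoblast barcodes. In barcodes with Ptprc, thinned from medians of 5223 and 6983 UMIs, the shares were 4.52% and 6.33% for Actc1 and 6.23% and 7.12% for Cdkn1c. Mymk, a gene of the rule, was at 47.6% in members of both libraries, which is given as a description. Some of the thinned genes were at or below their share in Ptprc barcodes, and no expression by members is read from those shares. Btg2, Crip1, Isg15, Lyz2 and Mef2c were so in both libraries, Ckm and Col1a1 in AIBP-KO, and Top2a and Mki67 in WT. Mef2c was at 12.3% and 6.05% in members against 27.1% and 24.5% in Ptprc barcodes and 4.199% and 1.70% in precursors, the satellite cell and myoblast barcodes defined below. Crip1 was at 63.4% and 36.8% in members against 91.6% and 80.5% in Ptprc barcodes. Ckm was at 17.6% and 7.56% against 8.22% and 8.67%, and Top2a at 5.29% and 7.56% against 7.05% and 6.78%.

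**Figure D1:**
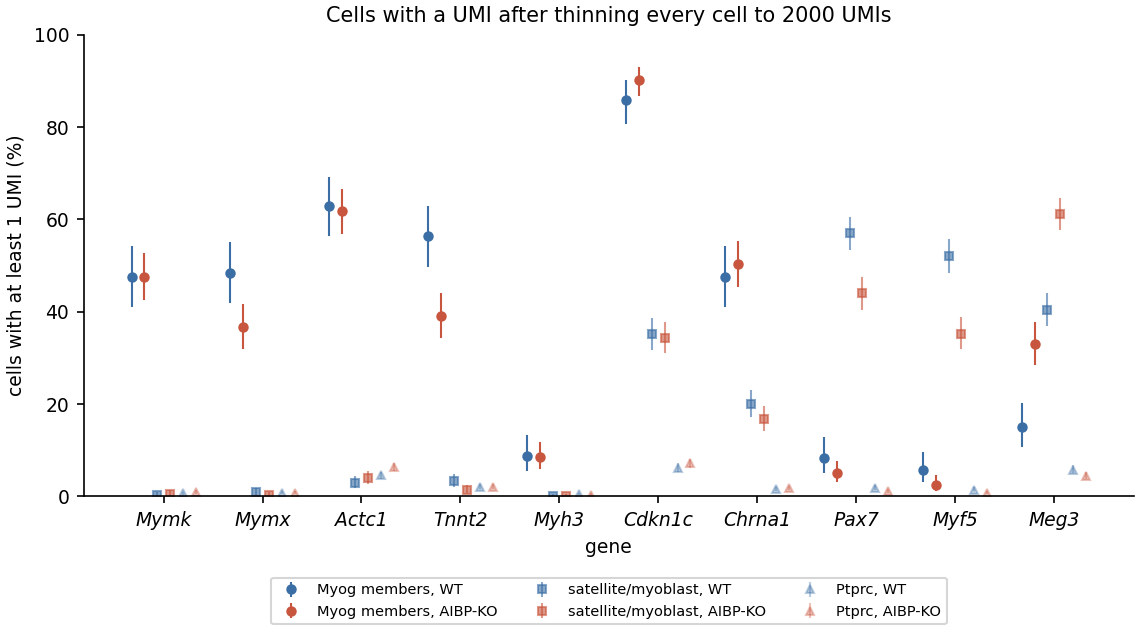
Share of cells with at least 1 UMI (%, vertical axis) of 10 genes after every cell was thinned to 2000 UMIs, in members (circles), satellite cell and myoblast barcodes (squares) and Ptprc barcodes (triangles) of the WT (blue) and AIBP-KO (red) libraries, with exact 95% intervals for counting error. Mymk, a gene of the rule, is shown as a description, Cdkn1c is at 85.9% in WT and 90.2% in AIBP-KO members, and Tnnt2 is at 56.4% in WT and 39.0% in AIBP-KO members.

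Transcripts of other cell types were present in the members. The 9 fibroblast markers summed to 4042 CPM in WT and 713 CPM in AIBP-KO members, and 3124 and 720 CPM without the called doublets. The 11 macrophage and leukocyte markers summed to 1802 and 942 CPM, and 777 and 586 CPM without doublets. Medians over single members were 718 and 280 CPM for fibroblast and 508 and 342 CPM for leukocyte markers, with maxima of 65373 and 28555 CPM for the first. Most members held some of this RNA and a few held a great deal. Endothelial markers summed to 46.7 and 46.7 CPM with Vwf at 0 in WT and Kdr at 0 in AIBP-KO members. Schwann cell markers summed to 31.7 and 20.9 CPM with 4 of 10 at 0 in both, and neutrophil markers to 5.19 and 9.15 CPM. Pericyte and smooth muscle markers summed to 733 and 622 CPM with Cnn1 at 0 in both. Tenocyte markers summed to 244 and 155 CPM, with Tnmd and Kera at 0 in WT and Comp at 0 in AIBP-KO members.

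Members were set against the nearest cells of their lineage, the 879 WT and 780 AIBP-KO barcodes with no Myog, at least 2 of Pax7, Myf5, Myod1 and Cdh15 and none of the exclusion genes, called precursors here. Of 5748 genes with at least 20 CPM, 238 (4.14%) were at least 2-fold higher in members in both libraries and 323 (5.62%) at least 2-fold lower. The 9 genes used by either rule are left out of those counts. Both sets were chosen by measured values, so these are descriptions without a test.

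Sarcomere genes of the embryonic and neonatal program stood highest. All 9 counted members of that list were past the fold, with a median log2 ratio of 5.30 in WT and 5.57 in AIBP-KO, against medians of -0.057 and -0.12 over all genes. Actc1, the cardiac actin that embryonic muscle uses first, was at 1978 CPM in WT members and 24.4 CPM in satellite cells and myoblasts, a ratio of 80.9 (67.8 to 97.4). In AIBP-KO it was at 2223 and 20.6 CPM, a ratio of 108 (91.6 to 127). Myh3 was 163-fold and 91.5-fold higher, with only 4 and 8 UMIs in the precursor sets, and the intervals run from 62.7 to 601 and from 46.1 to 213. Slow troponin I (Tnni1) was 41.2- and 48.2-fold, cardiac troponin T (Tnnt2) 25.9- and 50.5-fold and troponin C (Tnnc1) 45.9- and 38.0-fold higher. Of the Z disc, titin and assembly factors 7 of 11 counted were past the fold, led by Klhl41, a chaperone of nebulin (111- and 40.8-fold), and the actin filament nucleator Lmod2 (78.2- and 63.8-fold). Genes of mature fibres were past the fold in 10 of 15, with ratios of 9.43 and 7.66 for skeletal actin (Acta1) and 3.04 and 2.03 for muscle creatine kinase (Ckm).

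Fusion genes split. Mymx (ENSMUSG00000079471), a small membrane protein that completes the pore, was at 496 and 5.19 CPM in WT members and precursors and at 476 and 2.08 CPM in AIBP-KO, ratios of 95.4 (65.2 to 146) and 229 (138 to 409). Of 20 counted fusion and adhesion genes 4 were higher, among them Jam3 (3.45- and 3.20-fold), Elmo1, a Rac activator of myoblast fusion (6.99- and 7.37-fold), and the membrane scaffold Cav3 (6.78- and 12.4-fold). Membrane adhesion genes already present in myoblasts were close to the precursor level, such as Itgb1 (0.749 and 0.597), Cd9 (0.869 and 0.803) and Ncam1 (0.717 and 0.571). The other 2 genes past the fold were lower.

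Of 6 counted genes of the neuromuscular synapse 4 were past the fold: the embryonic acetylcholine receptor subunits Chrna1 (2.54 and 3.16), Chrnd (3.92 and 4.93) and Chrng (5.603 and 5.41), and Dok7, the MuSK adaptor (79.8 and 46.5). Chrne, the subunit of the adult receptor, had 0 UMIs in WT and 1 in AIBP-KO members. Rapsn, which clusters the receptor, was slightly lower in members, at 0.720 and 0.615. Excitation-contraction coupling genes were higher in 8 of 13, with Stac3 at 7.84 and 6.62, sarcalumenin (Srl) at 13.6 and 13.1 and the ryanodine receptor Ryr1 at 4.97 and 2.95.

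Among 21 counted myogenic regulators 7 were higher and 3 lower. Tead4, a partner of YAP and VGLL factors, was at 25.9 and 29.5 CPM in members and 0.962 and 0.139 CPM in precursors, ratios of 27.0 and 213, the second resting on 1 precursor UMI. Mef2a (3.26 and 3.66), Mef2c (4.82 and 4.59, with its share in members below that in Ptprc barcodes, as given above), Mef2d (2.77 and 2.67), the repressor of HES1 Hes6 (3.17 and 3.26), Six4 (2.17 and 2.78) and Klf5 (4.17 and 4.32) completed the higher group. The lower ones were Msc (0.158 and 0.0977), Id3 (0.229 and 0.244) and Vgll3 (0.405 and 0.363), the first 2 of which encode antagonists of MyoD family factors.

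Inhibitors of the cell cycle stood high. Cdkn1c, encoding p57, stood at 4920 CPM in WT members and 6436 CPM in AIBP-KO members, 8.86- and 10.5-fold over precursors. The retinoblastoma gene Rb1, which keeps differentiated muscle out of S phase, was 6.82- and 6.81-fold higher, and Cdkn1a, encoding p21, 5.69- and 2.75-fold. With Gadd45g these made up the 4 of 13 cell cycle exit genes past the fold higher. The CDK4 and CDK6 inhibitor Cdkn2d (0.457 and 0.425) was the 1 past it lower. Of 27 counted S and G2/M genes none were higher and 5 were past the fold lower.

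Satellite cell genes were lower in 8 of 20 and higher in none. Chodl was at 411 CPM in precursors and 37.9 CPM in members of WT, and at 343 and 32.9 CPM in AIBP-KO, ratios of 0.0921 and 0.0960, and the calcitonin receptor Calcr, a quiescence gene, was at 0.0715 and 0.0164. The Notch pathway, which holds satellite cells undifferentiated, was lower at its receptors and targets, with Notch3 at 0.157 and 0.144, Heyl at 0.274 and 0.200 and Hes1 at 0.203 and 0.301. Its ligand Dll1 was higher in members, at 4.71 and 2.87. In all, 2 of 10 Notch genes were past the fold higher and 5 lower. Erythroferrone (Erfe), a hormone of iron metabolism, was ranked first among the lower genes at 0.0424 and 0.0269, followed by Chrdl2, a BMP antagonist, and the natriuretic peptide Nppc (0.0779 and 0.0398). Immediate early genes, which tissue dissociation also induces, were lower in 5 of 14, with Jun at 0.312 and 0.460.

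Of the 12 highest-ranked genes, Smim5, Shisal1 and Mylk4 belong to none of the lists. Smim5, a small membrane protein, stood at 98.6 CPM in WT members and 89.8 CPM in AIBP-KO members, with 1 and 5 precursor UMIs. Shisal1 was at 34.8 and 34.1 CPM, with 0 precursor UMIs in WT, which makes it at least 60.2-fold higher there (floor of 3 counts over the group), and 123-fold higher in AIBP-KO. The kinase Mylk4 was at 91.9 and 103 CPM with ratios of 68.2 and 741, the second on 1 precursor UMI. In the annotation used, Smim5, Tnnc1 and Erfe overlap a protein-coding gene on the opposite strand (Recql5, Nisch and Ilkap), as do Cryab (Hspb2), Uqcrb (Gm10767), Tubb4b (Fam166a) and Mb (Apol6) among the genes below. With the strand setting of the counting not given in the sources used here, reads of such pairs cannot be told apart.

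**Figure D2:**
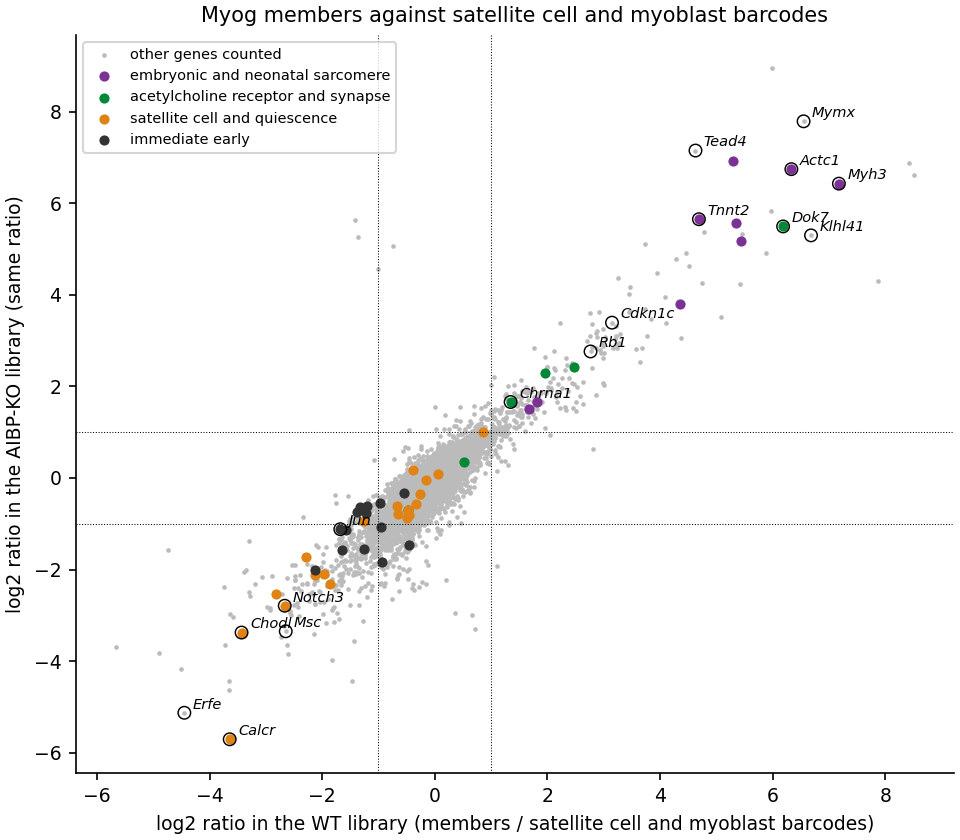
Log2 ratio of the level in members over that in satellite cell and myoblast barcodes, in the WT (horizontal axis) and the AIBP-KO (vertical axis) library, 1 point per counted gene, with 4 lists coloured and named genes ringed. Dotted lines mark 2-fold, and 238 genes lie past them at the upper right and 323 at the lower left.

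The members were not uniform. Their share of UMIs from sarcomere genes (embryonic, adult fibre and Z disc lists) had a median of 0.896% in WT and 0.869% in AIBP-KO members, against 0.262% and 0.261% in precursors. It reached 17.8% and 18.9% in the highest members. Cut points of 0.608% and 1.23% divided the pooled members into 3 equal-sized groups, called lower, middle and upper here, with 76, 70 and 91 WT and 138, 143 and 122 AIBP-KO members. Sarcomere genes are higher in the upper group by construction, and other genes show what went along with them.

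Myog was higher at each step, from 2007 CPM in the lower to 3373 and 5391 CPM in the middle and upper WT groups, and from 1943 to 4381 and 6163 CPM in AIBP-KO. Mymk went from 135 to 267 and 751 CPM in WT and from 133 to 464 and 852 CPM in AIBP-KO. Mymx went from 151 to 372 and 902 CPM in WT and from 29.2 to 350 and 942 CPM in AIBP-KO, so its lower group differed most between the libraries. The lower WT group held 15 of the 23 called WT doublets and the lower AIBP-KO group 4 of 8, and the part of doublets in that difference was not tested. Cdkn1c went from 3273 to 4647 and 6611 CPM in WT and from 3275 to 6764 and 8536 CPM in AIBP-KO. Cdkn1a was highest in the upper group, at 1370 and 1115 CPM, as was Mef2c at 272 and 124 CPM, against 17.1 and 12.4 CPM in the lower group. Before thinning Mef2c was detected in 49.5% and 40.2% of upper and 9.21% and 7.25% of lower members.

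Genes of the precursor state ran the other way. Pax7 went from 74.6 to 47.8 and 18.1 CPM in WT and from 64.9 to 17.6 and 9.51 CPM in AIBP-KO. Heyl was at 97.9 and 65.7 CPM in the lower and at 12.5 and 6.16 CPM in the upper group. Myod1 differed less, at 314, 372 and 322 CPM in WT and 495, 436 and 432 CPM in AIBP-KO. Chrna1 was at 233 and 301 CPM in the lower and at 531 and 564 CPM in the upper group. Mymk and Myod1 are both partner genes of the rule, so a member without one needs another, and their levels along this order are partly set by the selection.

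**Figure D3:**
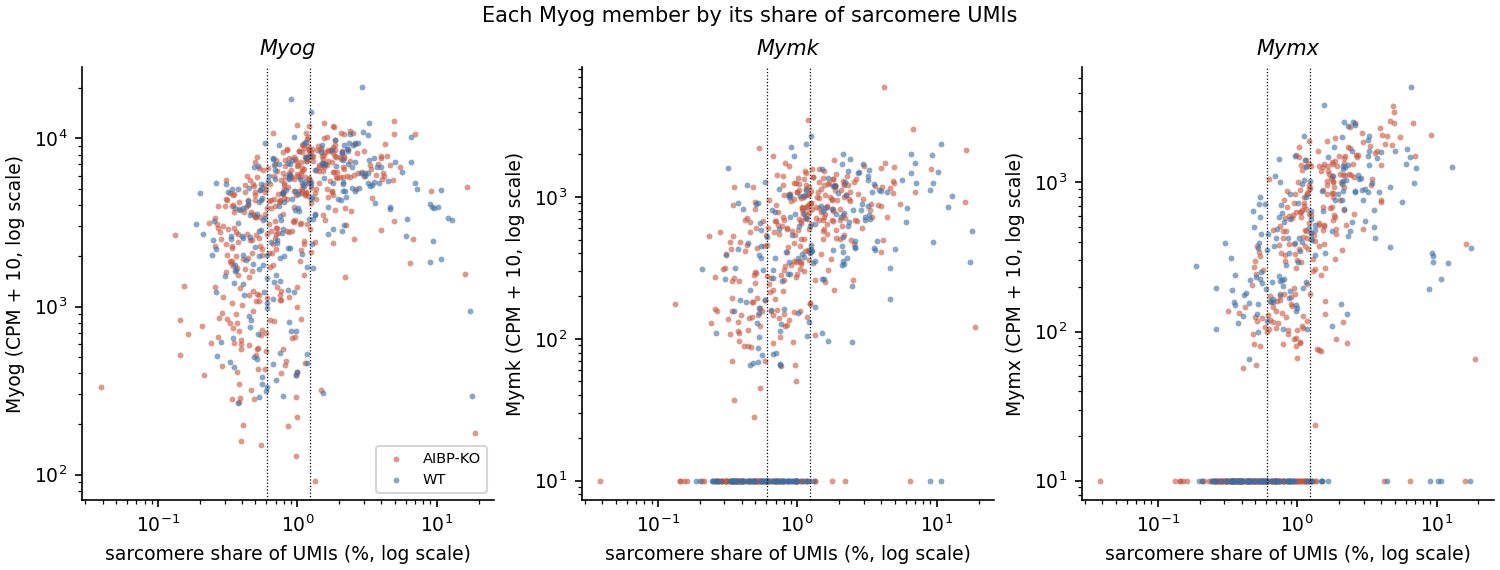
Level of Myog, Mymk and Mymx in each member (CPM + 10, log scale, vertical axes) against the member's share of UMIs from sarcomere genes (%, log scale, horizontal axes), WT in blue and AIBP-KO in red. Dotted lines are the cut points of 0.608% and 1.23%, points on the bottom line of the Mymk and Mymx panels have 0 UMIs, and both genes lie mostly above that line to the right of the second cut point.

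UMIs of the 2 fusion genes were not found together in every member, and absence here means 0 UMIs at the depth of the cell. Both were detected in 56.5% of WT and 50.1% of AIBP-KO members, Mymk alone in 13.5% and 23.1%, Mymx alone in 13.1% and 6.70%, and neither in 16.9% and 20.1%. After thinning both were detected in 28.6% and 23.7% and neither in 32.6% and 39.3%, so these classes move with depth. Members with Myh3 nearly all had Mymx, 49 of 53 (92.5%) in WT and 84 of 96 (87.5%) in AIBP-KO, against 63.0% and 47.2% of members without Myh3. After thinning the shares were 80.0% and 79.4% against 45.4% and 32.8%. Pax7 or Myf5 was still detected in 24.5% of WT and 25.8% of AIBP-KO members. Mymk was seen in 24 of 58 and 52 of 104 of those, against 79.3% and 81.3% of members without either. After thinning Pax7 or Myf5 remained in 12.3% and 7.56%, and Mymk in 8 of 28 and 4 of 30 of those against 50.3% and 50.4%. The library with the larger share thus differed before and after thinning. Mymk is a gene of the rule, and a member without it needed Cdh15 or Myod1.

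Some members carried a cell cycle program. At least 3 S or G2/M genes remained after thinning in 32 of 227 WT members (14.1%, 9.85 to 19.3) and 69 of 397 AIBP-KO members (17.4%, 13.8 to 21.5). In Ptprc barcodes the shares were 16.6% and 17.4% and in precursors 16.3% and 39.0%, so a share of this size is not above that of other cells in the tissue, and such calls alone do not show division. The cycling members had less Myog, 1651 and 1670 CPM against 4162 and 5202 CPM in the rest, and less Cdkn1c, 2308 and 2303 CPM against 5637 and 7747 CPM. Mymk was at 132 and 150 CPM in them against 469 and 625 CPM. Of the 32 WT cycling members 6 were called doublets, and of the 69 AIBP-KO ones none. By sarcomere group the cycling share was 20.5%, 17.4% and 5.88% in WT and 30.9%, 14.0% and 5.93% in AIBP-KO.

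Between the genotypes, 5796 genes with at least 20 CPM in either library were counted within the members. Of these 339 (5.85%) were at least 1.5-fold higher in the AIBP-KO library and 814 (14.0%) at least 1.5-fold lower, with a median log2 ratio of -0.081. This imbalance depends on scaling: with TMM factors the median was 0.093, and 693 genes were higher and 475 lower, so that the higher share of those past the fold went from 29.4% to 59.3%. Fibroblast markers were lower in AIBP-KO members in 9 of 9 counted genes (median log2 -2.92) and leukocyte markers in 10 of 10 (-0.96), and this holds beside every list below. The part of such RNA, and of the gap in depth, in the list values was not tested.

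KO over WT ratios of the genes of the rule are given as a description, since the rule required them in both libraries. They were 1.19 (1.15 to 1.22) for Myog, 1.27 (1.17 to 1.38) for Mymk and 1.35 (1.24 to 1.48) for Myod1, the last 1.507 with TMM factors. Among genes the rule did not use, Mymx was at 0.960 (0.890 to 1.04), Cdkn1c at 1.31 (1.28 to 1.34) and Actc1 at 1.12 (1.08 to 1.17), inside the 1.5-fold limits. The direction of Actc1 and Mymx rests on the processing. Actc1 was at 0.914 after thinning and 0.948 with every member weighted equally, and the log2 ratio of Mymx was -0.060, but 0.097 with TMM factors and 0.074 without cycling members. Acetylcholine receptor and synapse genes had 0 of 6 past the fold either way (median 0.21), and Chrna1, at a log2 ratio of 0.11, was at -0.21 after thinning. Myogenic regulators had 1 of 25 higher, the differentiation inhibitor Id1 (1.85), and 5 lower, among them Mef2c (0.483, with the limit given above), Klf5 (0.488) and Myf5 (0.507), with a list median of -0.26. Fusion and adhesion genes had 0 higher and 5 of 22 lower (median -0.25), with N-cadherin (Cdh2) at 0.522, Ncam1 at 0.561 and Itgb1 at 0.655. These 2 lists stand beside 14.0% of all genes lower, and neither count is read as a result about its list. With TMM factors 3 of 25 myogenic regulators and 2 of 21 fusion genes were lower, where 475 of 5760 genes were. Mef2c, Klf5, Myf5 and Cdh2 were lower in precursors too, at ratios of 0.508, 0.471, 0.736 and 0.489.

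Of 19 counted Z disc, titin and assembly genes 12 were lower and 1 higher (median log2 -0.80). Titin (Ttn), the elastic scaffold of the sarcomere, stood at 1362 CPM in WT members and 775 CPM in AIBP-KO members, a ratio of 0.569 (0.541 to 0.598), and nebulin (Neb) at 350 and 217 CPM. The Z disc protein Ldb3 was at 48.3 and 12.2 CPM and the mechanosensor Csrp3 at 37.9 and 13.01 CPM. Cryab, the small heat shock protein of the Z disc, was the exception, at 403 and 715 CPM (1.78, 1.64 to 1.92), and after thinning 50.2% of WT and 69.5% of AIBP-KO members had it. Cryab differed in the same direction in precursors, with a ratio of 1.70, and over all filtered barcodes, with a ratio of 1.87. Ttn, Neb and Ldb3 were lower in precursors too, at ratios of 0.640, 0.778 and 0.282, the last on 23 and 9 UMIs. Over all filtered barcodes their ratios were 0.984, 1.07 and 0.499. The 7 genes of the list counted in both sets had median log2 ratios of -0.28 in members and -0.32 in precursors.

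Adult fibre genes were lower in 10 of 19 and higher in none (median -0.63), against 14.0% of all genes lower. The count was 16 of 18 after thinning, where 1277 of 5969 genes were lower. With the Myog minimum at 2 UMIs it was 20 of 20, where 764 of 5793 genes were lower. That minimum gave 249 WT and 424 AIBP-KO members. The few barcodes it added moved the list median from -0.63 to -2.02 and the Ckm ratio from 0.449 to 0.156. With TMM factors the count was 7 of 19, where 475 of 5760 genes were lower. At a filter of 50 CPM it was 6 of 15, where 323 of 2911 were. Fibre transcripts were also present in other cells and were higher in those of WT. In Ptprc barcodes Myh4 was at 19.8 and 5.77 CPM, Pvalb at 33.2 and 10.5 CPM, Tcap at 15.2 and 5.69 CPM and Ckm at 114 and 60.9 CPM in WT and AIBP-KO. The WT member levels of Myh4 and Pvalb, 26.5 and 48.8 CPM, were near these, and the part of fibre RNA in the list was not tested. Several of the myosin genes rested on few cells. Adult fast myosin Myh4 was at 26.5 and 2.85 CPM, and 5 WT members held 84.3% of its 51 UMIs. Perinatal myosin Myh8, of the embryonic and neonatal list, was at 116 and 16.9 CPM, and 5 WT members held 92.9% of its 224 UMIs, 1 of them 158. Without the 5 members of each library with the highest adult fibre gene share, the ratio of Myh8 went from 0.145 to 0.279, that of Myh4 from 0.108 to 0.260 and that of Myh1 from 0.186 to 1.02. With the Myog minimum at 5 UMIs the Myh8 ratio was 0.470. Myosin heavy chain genes are near-identical neighbours, and reads may be split between them. The ratio of the titin cap gene Tcap, of the Z disc list, was 0.0746 with and 0.0710 without those members, and 10 WT members held all of its 84 UMIs. Other adult fibre genes were also lower, such as Ckm at 228 and 102 CPM, myoglobin (Mb) at 80.4 and 17.9 CPM and Cox6a2 at 110 and 34.8 CPM.

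The embryonic sarcomere list had 3 of 10 lower and none higher (median -0.39). The count was 6 of 10 after thinning, where 1277 of 5969 genes were lower. With every member given equal weight it was 8 of 10, where 930 of 5869 genes were lower. With TMM factors it was 2 of 10, where 475 of 5760 were. Tnnt2 was at 937 and 749 CPM, and after thinning 56.4% (49.7 to 62.9) of WT and 39.0% (34.2 to 44.0) of AIBP-KO members had it. Embryonic light chain Myl4 was at 469 and 221 CPM, a ratio of 0.470. Myh3 was at 125 and 101 CPM, and its ratio of 0.811 went to 0.573 without the 5 members named above. The calcium store genes Trdn (31.7 and 6.91 CPM), Hrc (41.0 and 11.0 CPM) and Sln (67.5 and 20.1 CPM) were among the 6 of 16 lower coupling genes.

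In the upper group 16 of 23 Z disc genes (median -0.89) and 13 of 20 adult fibre genes (-0.78) were lower in AIBP-KO and none higher, where 980 of 5598 genes were lower and 497 higher, with Ttn at 2934 and 1579 CPM and Tnnt2 at 2055 and 1739 CPM. In the middle group 1 of 11 Z disc genes was lower and 2 higher, and 1 of 13 adult fibre genes was lower and 6 higher, where 1144 of 5776 genes were lower and 516 higher. In the lower group 2 of 8 Z disc genes were lower and 1 higher, 5 of 13 adult fibre genes were lower and 3 higher, and 5 of 7 embryonic genes were lower, where 1290 of 6301 genes were lower and 818 higher. The groups were cut on the summed share of these same lists, so the middle group of both libraries lies between 0.608% and 1.23%. Only the upper group has no upper bound, and its median share was 2.60% in WT and 1.87% in AIBP-KO members. The contrast between the groups is thus partly set by the cut, and it was not tested. The upper group was also a larger part of the WT members, 38.4% (32.2 to 44.9) against 30.3% (25.8 to 35.02). With the 3 groups weighted equally, 11 of 18 Z disc and 9 of 19 adult fibre genes were lower. Such weights do not even out the sarcomere share inside the upper group.

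**Figure D4:**
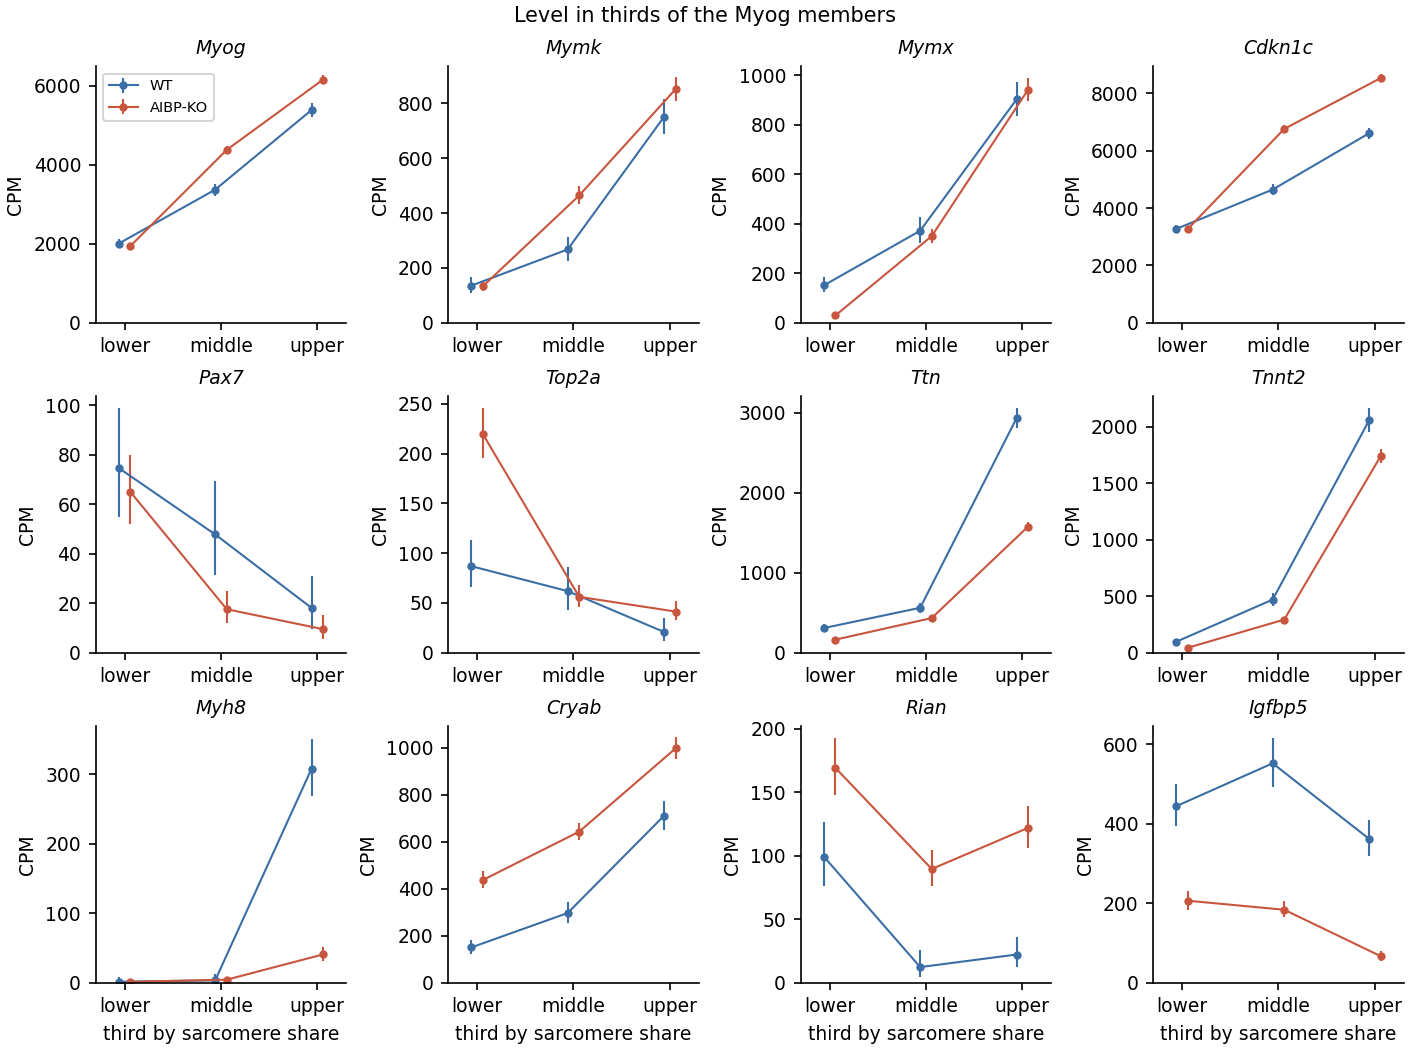
Level (CPM with exact Poisson 95% intervals for counting error) of 12 genes in members of the lower, middle and upper sarcomere groups, WT in blue and AIBP-KO in red. Ttn separates in the upper group at 2934 and 1579 CPM, Cryab, Rian and Igfbp5 separate in every group, and Myh8 is high only in the upper WT group at 308 CPM.

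S and G2/M genes were higher in AIBP-KO members in 17 of 25 and lower in none (median 0.66). The kinetochore motor Cenpe was at 6.75 and 26.4 CPM (3.92, 2.21 to 7.55), topoisomerase Top2a at 55.0 and 96.3 CPM and the microtubule regulator Stmn1 at 239 and 394 CPM. The Top2a ratio was 1.30 after thinning and 1.30 with every member weighted equally, neither past the fold. In WT 5 members held 54.7% of the Top2a UMIs. The share of cycling members was 14.1% and 17.4%, as given above. Cyclin D1 (Ccnd1), which drives entry into S phase, was at 102 and 170 CPM. With cycling members left out 4 genes of the list were still counted, 2 of them higher and none lower (median 0.58), Mki67 and Stmn1 had ratios of 1.905 and 1.56, and Cenpe and Top2a turned lower, at log2 ratios of -0.64 and -0.63. Cycling members were called by this same list, so leaving them out removes members that hold these UMIs. The values left are partly set by that selection, and no direction is read from them. In precursors the same 25 genes had a median of 1.20 with 23 higher. Over all filtered barcodes the ratios of Cenpe, Top2a and Stmn1 were 2.22, 1.56 and 1.95.

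Respiratory chain transcripts were higher in part. Of 13 mitochondrially encoded genes 7 were higher and 1 lower (median 0.61), with mt-Co2 at 1567 and 4325 CPM and mt-Nd6, the gene on the other strand of the mitochondrial genome, at 48.3 and 16.7 CPM. In precursors the median was 0.54, and over all filtered barcodes the ratios of mt-Co2 and mt-Nd6 were 2.32 and 0.411. Uqcrb, which encodes part of the nuclear share of complex III, had 298 and 641 CPM, a ratio of 2.15 (1.96 to 2.35) that was also 2.15 in precursors and 2.05 over all filtered barcodes. Nuclear respiratory genes as a list had 3 of 26 higher and 3 lower.

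Growth factor signalling genes were lower in part. Of 16 IGF, myostatin and BMP genes 9 were lower and none higher (median -0.64), against 14.0% of all genes lower. With TMM factors 5 of 16 were lower, where 475 of 5760 genes were, and at a filter of 50 CPM 5 of 10. In the members without other cells' markers 6 of 14 were lower and 2 higher, where 2387 of 6190 genes were lower. In precursors 15 of the genes had a median of -0.19 with 2 lower. Igfbp5, an IGF binding protein made by differentiating myoblasts, was at 445 and 148 CPM, a ratio of 0.332 (0.300 to 0.367) against 0.454 in precursors, and was seen in 29.5% and 13.9% of thinned members. It stood higher in precursors, at 1381 and 627 CPM. Over all filtered barcodes it was at 655 and 220 CPM, a ratio of 0.337, so the difference was not particular to members. The part of free RNA in its member level was not tested. Fstl1 (231 and 74.4 CPM), Igfbp6 (93.4 and 7.11 CPM) and Igfbp7 (94.5 and 43.1 CPM) belong to the same list but stand at least 10 times higher in Ptprc, Pdgfra or Cdh5 barcodes, and the part of free RNA in their values was not tested. The receptors Bmpr1a (0.602) and Acvr2a (0.625), the signal adaptor Irs1 (0.520) and Igf2 (0.623) were also lower.

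Of 13 counted imprinted genes 3 were higher and 4 lower. Rian, a noncoding RNA of the imprinted Dlk1-Meg3 region, was at 45.1 and 124 CPM, a ratio of 2.74 (2.18 to 3.47) against 1.75 in precursors, and was seen in 7.05% and 18.9% of thinned members. Its neighbour Meg3 was at 144 and 242 CPM and seen in 14.98% and 33.0%. The Meg3 ratio was 1.68 in members and 1.66 in precursors. Both genes stood higher in precursors, Rian at 147 and 257 CPM and Meg3 at 392 and 650 CPM. Over all filtered barcodes the ratios of Rian and Meg3 were 1.09 and 1.16. In Pdgfra barcodes Rian was at 287 and 367 CPM, and the part of free RNA in its member level was not tested. Peg3 (0.663), Plagl1 (0.592) and Zim1 (0.620) were lower, all outside that region. Dlk1 was at 9.86 and 42.7 CPM, and it too stands at least 10 times higher in such barcodes.

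Of the remaining ranked genes, the peptide genes Edn3, encoding endothelin 3, at 7.27 and 28.3 CPM (3.89, 2.24 to 7.30), and Gal, encoding galanin, at 146 and 336 CPM (2.29, 2.02 to 2.61) were higher in AIBP-KO members by summed UMIs. Edn3 stood higher in precursors, at 77.0 and 114 CPM, a ratio of 1.48, and 5 WT members held 10 of its 14 UMIs. Gal was the other way in precursors, where its ratio was 0.814 (0.748 to 0.885). The Gal ratio was 1.299 with every member weighted equally and 1.34 after thinning, neither past the fold, and 0.857 in the middle group against 6.98 in the lower and 5.93 in the upper. In WT 5 members held 62.1% of the Gal UMIs, 1 of them 65 of 282. Chst13, a chondroitin sulfotransferase, was at 11.4 and 32.3 CPM with 0 and 1 UMIs in precursors. Tst, Atp2a3, Uchl5, Tipin, Abhd8 and Tubb4b made up the rest of the higher group, with ratios from 1.88 to 3.85, and Atp2a3 turned to a log2 ratio of -0.14 after thinning. In the same order, their ratios over all filtered barcodes were 1.76, 1.53, 2.01, 2.02, 1.14 and 1.79. Lower were Crip1 (1865 and 652 CPM), whose ratio in precursors was 0.478, the secreted peroxidase Gpx3 (138 and 31.1 CPM), parvalbumin (Pvalb, 48.8 and 11.4 CPM) and Ccdc152 (27.0 and 1.42 CPM). Gpx3 stood higher in precursors, at 842 and 450 CPM, a ratio of 0.535, and in Pdgfra barcodes, at 482 and 253 CPM. Over all filtered barcodes the Gpx3 ratio was 0.489, and the part of free RNA in its member level was not tested. Ccdc152 overlaps Selenop on the opposite strand, and Selenop itself was at 264 and 65.6 CPM.

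**Figure D5:**
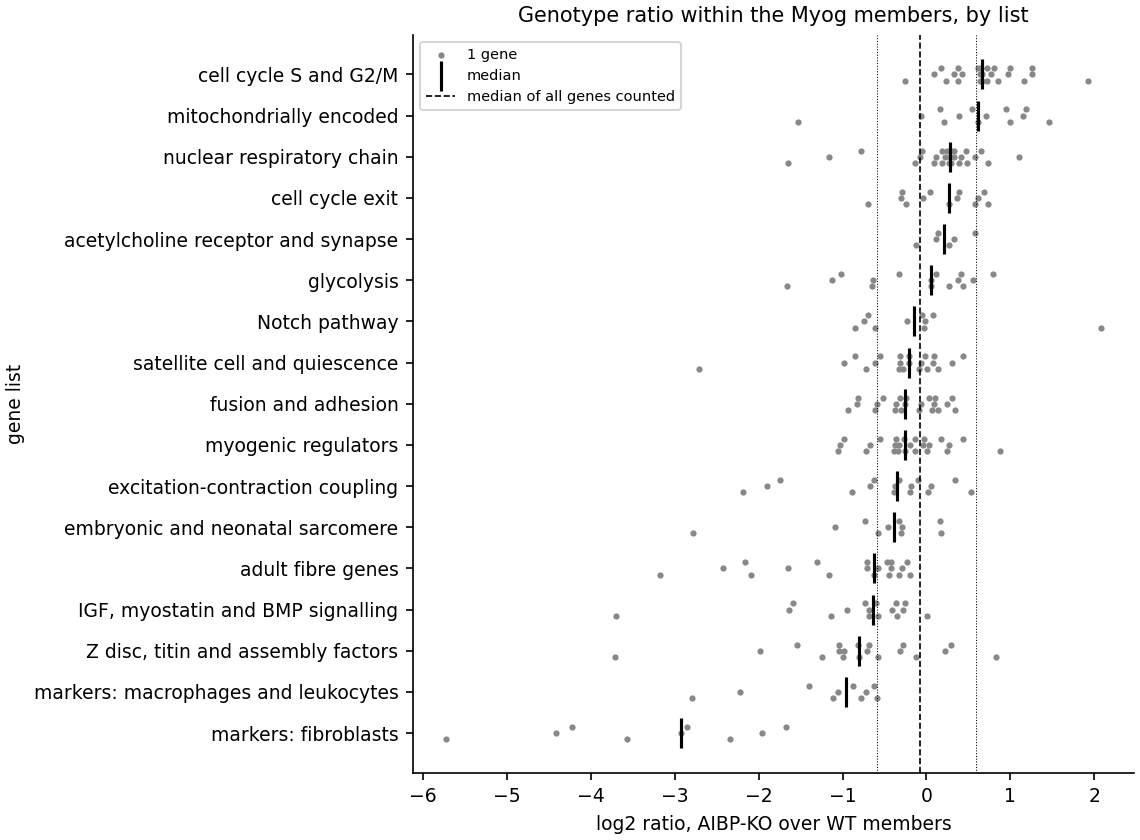
Log2 ratio of AIBP-KO over WT members (horizontal axis) for the counted genes of 17 lists (rows), each point 1 gene and each bar the list's median. The dashed line is the median of all genes, -0.081, dotted lines mark 1.5-fold, and medians run from 0.66 for S and G2/M genes to -2.92 for fibroblast markers.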

How the data were processed

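The authors deposited raw UMI counts per gene and barcode for 32574 genes, not normalized, from Cell Ranger. The file headers name version 5.0.0, while 2.1.1 stands in the submitters' processing notes, with genome build and annotation not given in the sources used here. Overlaps between genes come from the GENCODE vM21 annotation. Barcodes with under 200 genes (49 WT, 31 AIBP-KO) or over 10% mitochondrial UMIs (149 and 197) were removed, which left 80769426 and 80151365 UMIs. Counts were summed over members (1926913 and 4920183 UMIs) and given as CPM with exact Poisson intervals, ratios with exact conditional intervals and shares with Clopper-Pearson intervals, at 95%. Genes counted had at least 20 CPM, and log2 ratios used a prior of 0.5 UMI. Groups came from the genotype label. Scrublet ran in scanpy 1.11.5 with 0.8% doublets expected per 1000 barcodes, and edgeR 4.0.16 gave TMM factors only. Python 3.11.15 and scipy 1.17.1 were used, and the code was tested on simulated data.

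Named genes were the 12 highest and 12 lowest of each comparison by the interval bound nearest 1, leaving out ribosomal, mitochondrial, haemoglobin, sex-linked and clone-named genes and those 10 times higher in Ptprc, Pdgfra or Cdh5 barcodes (muscle fibre barcodes were not part of that filter; 3 higher and 62 lower genotype genes, and 3 lower precursor genes), and the leading genes of each list. Members and lists were chosen with earlier results of these data known. Alternatives were other Myog thresholds, thinning, other filters and scaling, equal weights and leaving out doublets, cycling members or members with other cells' markers.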

Additional observations from a re-analysis of the deposited data

Results flagged for a closer look

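Hbb-bs, a beta globin gene of red blood cells, differed in direction between the libraries when members were set against satellite cell and myoblast barcodes. Its ratio was 0.387 in WT and 38.5 in AIBP-KO. The difference was not tested. In AIBP-KO members 1 cell held 2258 of the 2282 Hbb-bs UMIs, while in WT members 124 UMIs were spread over 77 cells. Hba-a1 had the same shape, with 482 of 493 UMIs in 1 AIBP-KO member.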

How the results depend on the processing

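Allowing 1 UMI of each exclusion gene raised the member shares to 1.96% and 4.91%. The counts of genes higher and lower between genotypes were 667 and 1277 after thinning, 1797 and 4605 with no filter on level, 183 and 323 at 50 CPM, 693 and 475 with TMM factors, and 1169 and 2387 in the 21 WT and 38 AIBP-KO members without other cells' markers. Against precursors they were 813 and 1281 with no filter and 150 and 168 at 50 CPM. Thinning to 1000 UMIs gave WT and AIBP-KO shares of 29.4% and 32.7% for Mymk, 28.5% and 25.2% for Mymx, 55.3% and 54.4% for Actc1, 43.4% and 27.9% for Tnnt2, 7.66% and 21.7% for Meg3, and 79.6% for Cdkn1c in WT. Among log2 ratios and medians past 1.5-fold, those that turned were Atp2a3 after thinning (-0.14), Cenpe (-0.64) and Top2a (-0.63) without cycling members (called by the list that holds both), and the chemokine median without doublets (0.085) and at 50 CPM (0.088). In the members without other cells' markers, S and G2/M (-0.69), mitochondrially encoded (-0.14) and matrix (0.12) medians turned. Top2a (-1.97), Chst13 (-1.43) and Atp2a3 (-0.29) turned as well. Other turned values rest on empty counts or on the prior of 0.5 UMI, and no direction is read from them. Cenpe (-1.97) had no UMIs in either library, and Tcap (1.73), Pax7 (1.73), Myh4 (0.83) and Myh1 (0.35) had none in WT. Isg15 (-0.10) and Naxd (-0.10) had ratios of 1.27 and 1.02 without the prior. Of values within 1.5-fold, Myog (-0.30), Mymk (-0.44), Myod1 (-0.17), Actc1 (-0.59) and Chrna1 (-0.91) turned there too. So did the cell cycle exit (-0.69) and acetylcholine receptor (-0.31) medians. Those members are few, and apart from that the cause was not tested. Of 288 values of the genotype genes ranked, 233 moved by less than their counting interval, and of 384 for the precursor comparison 350. Both totals include the settings with no filter on level and with 50 CPM, which change only which genes are counted. A gene's ratio cannot move there, so those values are unchanged by construction and say nothing about stability. Leaving out the 5 members with the highest adult fibre gene share per library was chosen after seeing the data. No paired analysis was possible because each genotype has 1 library with no shared replicate number, and for the same reason no library could be left out.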
